A study of Mus musculus with 6 samples.

Results

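The genes described here are 10 members of Toll-like receptor recognition, Tlr1, Tlr2, Tlr3, Tlr4, Tlr6, Tlr7 and Tlr9 with the signalling adaptor Myd88 and the co-receptors Cd14 and Ly96. They were named as a list, and all 10 were found among the 18194 genes measured, through 16 of the 45101 probe sets on the array. A probe set counted where the platform annotation gave it exactly 1 of these symbols, and each gene was read from its probe set with the highest mean over the 6 arrays. RNA came from sorted bone marrow cells of adult mice and was hybridised to Affymetrix arrays in 3 groups of 2 arrays. WT LSK FLT3- cells carried no lineage markers, were positive for SCA1 and KIT and were sorted as negative for FLT3; hematopoietic stem cells lie in this fraction. WT LMPP cells lay in the same gate but were FLT3hi, and are known as lymphoid-primed multipotent progenitors. E2A-KO LMPP cells were sorted as FLT3hi cells of that gate from mice lacking E2A, the basic helix-loop-helix factors encoded by Tcf3. All mice were C57bl/6 or on that background, and no knockout LSK FLT3- sample was analysed here. The labels name no separate mice or sorts for the arrays of a group, so the p-values measure the spread between arrays, which may be technical, and in sorted bulk RNA fewer cells of a type and less RNA per cell cannot be told apart.

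Toll-like receptors are membrane proteins that bind microbial molecules. Tlr2, with Tlr1 or Tlr6 as its partner, binds bacterial lipopeptides at the cell surface, and Tlr4 binds lipopolysaccharide there together with Ly96 (MD-2) and with Cd14, which delivers the ligand. Tlr3, Tlr7 and Tlr9 sit in endosomes and bind nucleic acids. Myd88 carries the signal of all of these receptors except Tlr3, which signals through the adaptor Ticam1 (TRIF), and the pathway ends at NF-kappaB and interferon regulatory factors. Stem and progenitor cells are known to carry some of these receptors, and their stimulation is known to push progenitors towards myeloid and dendritic cells.

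E2A proteins bind E boxes, so the bases upstream of the members were searched for the letters CAGGTG or, on the other strand, CACCTG. RefSeq promoter sequences (GRCm38.p6) were found for 6 of the 10 members, in 8 promoters, and not for Tlr4, Tlr7, Cd14 and Ly96. Of these 8 promoters 3 held the letters within the 250 bases before the gene start, against 17.2% of all 32851 promoters. The 3 matches are shown 5′ to 3′ on the gene's strand with the E box letters in capitals, as 30-base windows. They are 82, 178 and 45 bases before the start of Tlr1, Tlr2 and Tlr9, at chr5:64933623-64933652 (minus strand), chr3:83841769-83841798 (minus strand) and chr9:106222541-106222570 (plus strand).
Tlr1: agtaattagctgCAGGTGgcagtaaagagc
Tlr2: ttctctttaggaCACCTGgggaattcccac
Tlr9: gactcattgtacCACCTGctctttcagggt
None of these 3 genes passed the test between E2A-KO and WT LMPP, where their log2 differences were -0.19, -0.33 and -0.36. The match describes these letters only and is no measured binding site.

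Levels are given as log2 of the deposited RMA intensity. The array medians lay between 3.90 and 4.04, and values near or below them are in the compressed low range where differences are understated. A gene was called at an adjusted p under 0.05 in limma's moderated test over all 18194 genes and 6 arrays, with Benjamini-Hochberg adjustment, and all adjusted p-values below are from this test unless stated. Flt3 followed the sort, at 10.80 on both WT LMPP arrays, 10.70 and 10.76 on the E2A-KO LMPP arrays and 8.87 and 8.76 in WT LSK FLT3-. Tcf3, the targeted gene, was at 6.93 and 6.86 in WT LMPP and at 6.80 and 6.53 on the E2A-KO LMPP arrays (adjusted p = 0.50). The position of its probe set relative to the deletion was not stated in the labels, so Tcf3 does not check the labels. The upper quartile ranged from 5.78 to 5.82 over the LMPP arrays and was 6.13 and 6.15 for WT LSK FLT3-. Of the genes called between the wild-type stages 30.5% were higher in WT LMPP, against 17.8% with the arrays centred on their medians and 47.4% with quantile normalization. Between E2A-KO LMPP and WT LSK FLT3- these shares were 29.3%, 14.6% and 44.0%. Median centring moved the median stage difference of all genes from -0.01 to -0.12.

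From WT LSK FLT3- to WT LMPP, 2 endosomal receptors rose and 3 surface receptors fell. Tlr3 and Tlr7 were 3.50-fold and 3.55-fold higher in WT LMPP, and Tlr4, Tlr2 and Tlr6 were 2.76-fold, 1.71-fold and 1.39-fold lower. The other 5 members did not pass. Over all genes 34.1% were called in this comparison, 10.4% higher and 23.7% lower. The arrays of the stages did not overlap for 7 members, against 71.8% of all genes. The members' median difference was -0.23, against -0.01 over all genes.

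**Figure D1:**
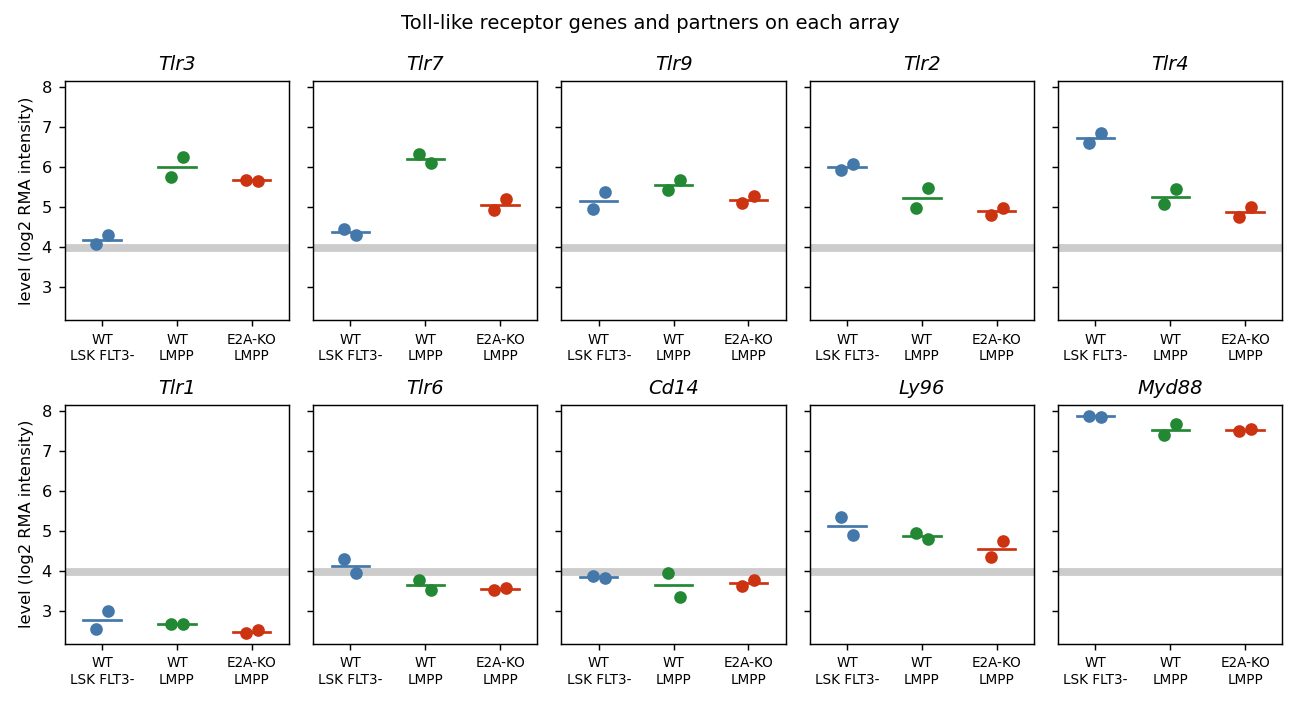
Level of each gene (log2 RMA intensity, vertical axis) on the 2 arrays of each group; points are arrays, short lines are group means, and the grey band spans the medians of the 6 arrays. Tlr3 and Tlr7 lie higher in WT LMPP than in WT LSK FLT3-, Tlr4 and Tlr2 lie lower, and Tlr7 is lower in E2A-KO LMPP than in WT LMPP.

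Tlr7, the endosomal receptor for single-stranded RNA, was at 4.46 and 4.31 on the WT LSK FLT3- arrays, 6.33 and 6.09 on the WT LMPP arrays and 4.92 and 5.20 on the E2A-KO LMPP arrays. The groups did not overlap, with WT LMPP highest and WT LSK FLT3- lowest. Tlr7 rose by 1.83 (SE 0.15, 95% confidence interval 1.47 to 2.18, adjusted p = 0.00012) from WT LSK FLT3- to WT LMPP. It was 1.15 lower in E2A-KO LMPP than in WT LMPP (log2 difference -1.15, SE 0.15, interval -1.50 to -0.80, adjusted p = 0.00952), a 2.22-fold difference. The knockout call was lost without E2A-KO LMPP replicate 1 (-1.01, adjusted p = 0.0728) and when all Tlr7 probe sets were averaged (-0.63, adjusted p = 0.0704). E2A-KO LMPP was 0.67 above WT LSK FLT3- (SE 0.15, adjusted p = 0.00999).

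Tlr3, the endosomal receptor for double-stranded RNA, was at 4.07 and 4.31 on the WT LSK FLT3- arrays, 5.75 and 6.24 on the WT LMPP arrays and 5.69 and 5.66 on the E2A-KO LMPP arrays. Both LMPP groups lay above the LSK FLT3- arrays, which were close to the array median. Tlr3 rose by 1.81 (SE 0.18, interval 1.40 to 2.21, adjusted p = 0.000245) between the wild-type stages. Its knockout difference of -0.32 (interval -0.72 to 0.08, adjusted p = 0.45) did not pass.

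Tlr9, the endosomal receptor for unmethylated CpG DNA, was at 4.95 and 5.38 in WT LSK FLT3-, 5.44 and 5.67 in WT LMPP and 5.10 and 5.28 on the E2A-KO LMPP arrays. WT LMPP was highest without overlap, and the other groups overlapped. Neither the stage difference of 0.39 (SE 0.17, adjusted p = 0.115) nor the knockout difference of -0.36 (SE 0.17, interval -0.76 to 0.03, adjusted p = 0.382) passed. With quantile normalization of the 6 arrays the stage difference was 0.56 and passed (adjusted p = 0.0475).

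Tlr4, the lipopolysaccharide receptor, was at 6.61 and 6.85 in WT LSK FLT3-, 5.07 and 5.46 in WT LMPP and 4.77 and 5.0 on the E2A-KO LMPP arrays. The LSK FLT3- arrays stood above all LMPP arrays by more than the spread between replicates. Tlr4 fell by 1.47 (log2 difference -1.47, SE 0.17, interval -1.86 to -1.07, adjusted p = 0.000596) from WT LSK FLT3- to WT LMPP. This is the brightest of 4 probe sets, the second differed by -0.15 (adjusted p = 0.485 over all probe sets), and averaged over all 4 the difference was -0.40 (adjusted p = 0.0238). The knockout arrays lay below the wild-type LMPP arrays without overlap, but the difference of -0.38 (interval -0.77 to 0.01, adjusted p = 0.357) did not pass.

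Tlr2, the lipopeptide receptor, was at 5.92 and 6.08 in WT LSK FLT3-, 4.98 and 5.47 in WT LMPP and 4.80 and 4.99 on the E2A-KO LMPP arrays. The LSK FLT3- arrays were highest, and the LMPP genotypes overlapped. Tlr2 fell by 0.77 between the wild-type stages (log2 difference -0.77, SE 0.18, adjusted p = 0.0114). That call was lost with quantile normalization (-0.50, adjusted p = 0.0967) and without WT LSK FLT3- replicate 1 or 2 (adjusted p = 0.0581 and 0.0989).

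The partners of Tlr2 were dim. Tlr6 was at 4.29 and 3.95 in WT LSK FLT3-, 3.76 and 3.52 in WT LMPP and 3.53 and 3.57 on the E2A-KO LMPP arrays, around or below the array median. Its fall between the stages (-0.48, SE 0.16, adjusted p = 0.0445) lost its call in 8 of 13 alternatives. Among them was the fit to the 4 wild-type arrays alone (adjusted p = 0.0553). Leaving out either E2A-KO LMPP array repeats that fit, so these count as 1 refit. The call was also lost without WT LMPP replicate 2 (-0.36) and without WT LSK FLT3- replicate 1 (-0.31) or 2 (-0.65). Tlr1 lay between 2.45 and 2.99 on all 6 arrays, well below the array medians, and passed in no comparison. At that level a difference may not be detectable on these arrays.

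Of the co-receptors, Ly96, the lipopolysaccharide-binding partner of Tlr4, was at 5.35 and 4.88 in WT LSK FLT3-, 4.94 and 4.79 in WT LMPP and 4.35 and 4.75 on the E2A-KO LMPP arrays. The wild-type groups overlapped, and the differences of -0.25 between the stages (adjusted p = 0.333) and -0.32 between the LMPP genotypes (adjusted p = 0.50) did not pass. Cd14 lay between 3.35 and 3.95 on all arrays, below the median of each array, and passed in no comparison, while without WT LMPP replicate 1 its stage difference was -0.50 and passed (adjusted p = 0.0466). Myd88, the shared adaptor, was at 7.88 and 7.84 in WT LSK FLT3-, 7.40 and 7.65 in WT LMPP and 7.48 and 7.53 on the E2A-KO LMPP arrays. Its stage difference of -0.33 (interval -0.64 to -0.02, adjusted p = 0.0936) did not pass and was 0.03 with quantile normalization, while it passed at -0.44 (adjusted p = 0.0364) with the arrays centred on their medians and at -0.46 (adjusted p = 0.0493) without WT LMPP replicate 2. Between E2A-KO LMPP and WT LSK FLT3- Myd88 differed by -0.35 and did not pass (adjusted p = 0.0711), though it passed in 6 of 14 alternatives. The LMPP genotypes overlapped in Myd88, with a difference of -0.02 (interval -0.34 to 0.29).

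**Figure D2:**
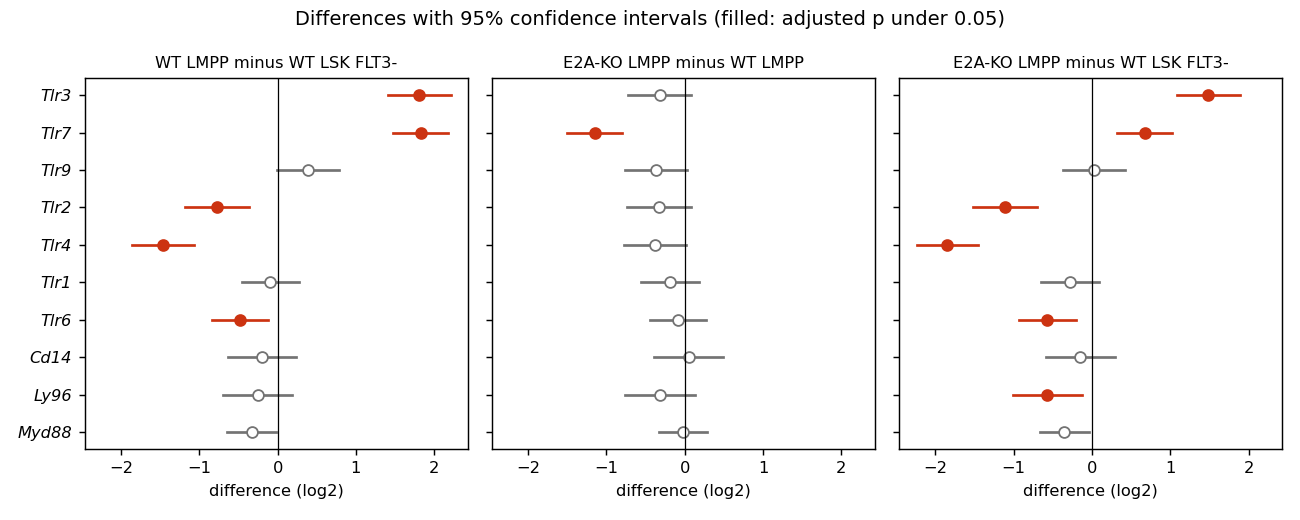
Log2 difference (horizontal axis) of each gene in the 3 comparisons; points are the model's estimates, lines their 95% confidence intervals, and filled points have an adjusted p under 0.05. Between the wild-type stages 2 genes are higher and 3 lower, and between the LMPP genotypes Tlr7 alone is filled, at -1.15.

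The comparison of E2A-KO with WT LMPP asks what differs in these progenitors without E2A. Tlr7 was the 1 member of 10 that passed, and it fell. Over all genes 1.37% were called, 0.995% lower and 0.379% higher. No member was called higher by limma, and on the probe sets used Tlr7 was also the 1 member with an unadjusted p under 0.05. The second Tlr4 probe set differed by -0.67 (limma, unadjusted p = 0.00118, adjusted p = 0.0768 over all probe sets). On the probe sets used the difference was below 0 for 9 members, Cd14 at 0.05 being the exception. Their median was -0.32 against -0.02 over all genes. The share of all genes below 0 was not counted. Myd88 (-0.02) turned above 0 with quantile normalization and Tlr6 (-0.09) without WT LMPP replicate 1. The arrays of the genotypes did not overlap for 6 members, Tlr1, Tlr3, Tlr4, Tlr7, Tlr9 and Ly96, against 41.6% of all genes. The intervals of the other 9 differences spanned 0.

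Markers of other cells moved with these comparisons. Of 9 neutrophil markers 7 were lower in E2A-KO than in WT LMPP, beside 0.995% of all genes. Between the stages 7 were higher in WT LMPP than in WT LSK FLT3-, beside 10.4% of all genes. Their summed linear intensity was 2979 on both WT LMPP arrays, 582 and 663 on the E2A-KO LMPP arrays and 1631 and 1748 on the WT LSK FLT3- arrays. Of 9 monocyte and macrophage markers 3 were called lower in E2A-KO LMPP, Csf1r, Mpeg1 and F13a1, beside 0.995% of all genes. Another 3 lay above 0 without overlap but were not called, Cx3cr1 (0.54), Fcgr1 (0.47) and Ms4a6c (0.29). The sum was 1696 and 1882 in WT LMPP, where Mpeg1 and Csf1r gave most of it. It was 972 and 1017 on the E2A-KO LMPP arrays and 927 and 943 in WT LSK FLT3-. These markers differed in their order of groups. Mpeg1, a perforin-like gene of macrophages, was at 9.76 and 9.61 in WT LMPP, 8.58 and 8.63 on the E2A-KO LMPP arrays and 6.5 and 6.62 in WT LSK FLT3-. Lyz2, F13a1 and Ms4a6c had their highest group mean in WT LSK FLT3-, and Ms4a6c was called lower in WT LMPP (-0.57, adjusted p = 0.0129). The defining macrophage genes Adgre1, Cx3cr1 and Fcgr1 lay between 3.04 and 4.19 on all arrays, near or below the median.

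Of 7 dendritic cell markers 0 were called between the LMPP genotypes, where 1.37% of all genes were. Between the stages 4 were higher in WT LMPP, beside 10.4% of all genes. Siglech, a gene of plasmacytoid dendritic cells, was at 4.59 and 4.79 in WT LMPP and 4.57 and 4.62 on the E2A-KO LMPP arrays. It was at 4.24 and 4.25 in WT LSK FLT3-, and its stage call held in 8 of 14 alternatives. Bst2, 1 of 2 genes of the list below 0 between the stages, was at 6.00 and 6.36 in WT LSK FLT3-. It was at 5.61 and 5.91 in WT LMPP, a difference of -0.42 that did not pass (adjusted p = 0.0878). The summed intensity of the dendritic cell markers lay between 236 and 262 on all arrays. In WT LSK FLT3- most of it came from Bst2 and Klk1 (6.76 and 6.71), the 2 genes below 0 between the stages. The list's mean log2 level was 4.42 and 4.56 in WT LSK FLT3-, 4.77 and 4.83 in WT LMPP and 4.66 and 4.68 on the E2A-KO LMPP arrays. Of 7 B and plasma cell markers the sum was 1375 and 1524 in WT LSK FLT3- and 256 to 408 in LMPP. Most of the WT LSK FLT3- sum came from the immunoglobulin genes Igha, at 9.97 and 10.13, and Jchain, at 7.83 and 8.05. These were the 2 genes called lower in WT LMPP, beside 23.7% of all genes. The list did not fall as a whole, since 2 were called higher, beside 10.4% of all genes. They were Sdc1 (1.54, adjusted p = 0.000168) and, in the low range, Cd79a (0.72, adjusted p = 0.00686). Sdc1, a plasma cell gene, was 0.94 higher in E2A-KO than in WT LMPP. Of 5 T and NK cell markers 2 were called higher in WT LMPP than in WT LSK FLT3-, beside 10.4% of all genes. They were Cd3e (0.59) and Cd8a (0.50). Between the genotypes 0 of the 5 were called. With 1.37% of all genes called there, a count of 0 in so short a list says little. The part of these cells in the receptor differences was not tested.

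E2A-KO LMPP and WT LSK FLT3- differed in 6 members, 2 higher and 4 lower in E2A-KO LMPP, against 11.0% and 26.5% of all genes, or 37.5% in all. The arrays did not overlap for 9 members, against 74.0% of all genes. This comparison shares its arrays with both others. Tlr3 was 1.49 higher (adjusted p = 0.000521) beside Tlr7. Tlr4 was 1.85 lower (log2 difference -1.85, adjusted p = 0.000169), Tlr2 1.11 lower (-1.11, adjusted p = 0.00209), Tlr6 0.57 lower (-0.57, adjusted p = 0.0217) and Ly96 0.57 lower (-0.57, adjusted p = 0.0466). The Ly96 call was lost with quantile normalization (adjusted p = 0.102), with the replicate number as a block (0.0586), with all probe sets tested (0.0582) and without E2A-KO LMPP replicate 1 (-0.37, 0.237) or WT LSK FLT3- replicate 1 (-0.34, 0.32). That of Tlr6 was lost without either E2A-KO LMPP array (0.0783 and 0.0617) or WT LSK FLT3- replicate 1 (0.187), and that of Tlr7 with all probe sets averaged (0.0524), without E2A-KO LMPP replicate 2 (0.054) and without WT LSK FLT3- replicate 1 or 2 (0.0503 and 0.0924).

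Tlr3, Tlr4 and Tlr7 had several probe sets, and those of Tlr4 disagreed. The second Tlr4 probe set was at 4.87 and 4.90 in WT LSK FLT3-, 4.86 and 4.61 in WT LMPP and 4.03 and 4.10 on the E2A-KO LMPP arrays. It did not pass between the stages, where the brightest one fell, and it differed by -0.67 between the genotypes (unadjusted p = 0.00118, adjusted p = 0.0768 over all probe sets). The remaining pair for Tlr4 stayed between 2.57 and 3.38.

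The second Tlr7 probe set followed the first in direction, at 4.01 and 3.60 in WT LSK FLT3-, 4.36 and 4.80 in WT LMPP and 4.12 and 4.06 on the E2A-KO LMPP arrays. Its stage rise of 0.77 passed (adjusted p = 0.02 over all probe sets), and its knockout difference of -0.49 did not (adjusted p = 0.309). The third, near the array median, differed by 0.44 and -0.26, and neither passed. The other Tlr3 probe set was dim, between 2.67 and 3.29, and differed by 0.41 between the stages (adjusted p = 0.0861). With all probe sets averaged the stage rises of Tlr3 and Tlr7 were 1.11 and 1.01 and passed.

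**Figure D3:**
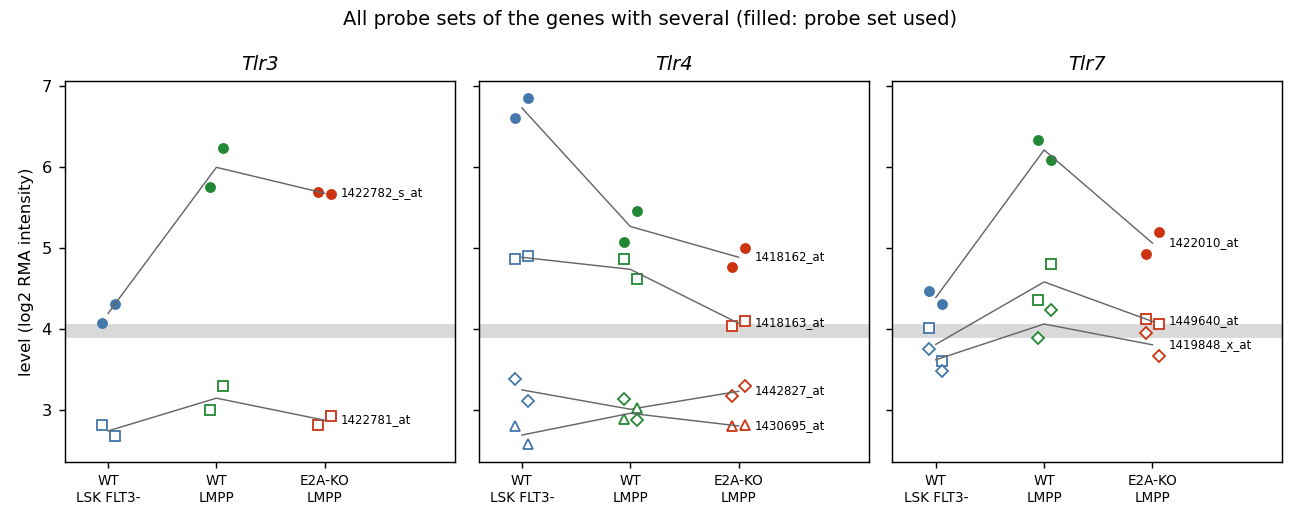
Level (log2 RMA intensity, vertical axis) of every probe set of Tlr3, Tlr4 and Tlr7 on the 2 arrays of each group; filled symbols are the probe set used for the gene, lines join group means, and the grey band spans the array medians. For Tlr4 the brightest probe set is highest in WT LSK FLT3-, while the second differs by -0.15 between the wild-type groups and is lowest in E2A-KO LMPP.

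The 2 members with the widest range of group means were Tlr4 (1.85) and Tlr7 (1.83). Among 18193 other genes, those with the smallest Euclidean distance to Tlr4 over 6 arrays, after centring each gene on its mean, were Abhd8 (0.153), the chaperone gene Dnajb4 (0.195) and the mitochondrial ribosomal gene Mrpl50 (0.267). Those closest to Tlr7 were the vesicular monoamine transporter gene Slc18a1 (0.349), the recombinase gene Rag2 (0.369) and the kinase gene Camk1d (0.372). Rag2 was at 6.61 and 6.68 in WT LMPP, 5.24 and 5.69 on the E2A-KO LMPP arrays and 4.62 and 4.53 in WT LSK FLT3-, in the same order of groups as Tlr7. Slc18a1 and Camk1d had that order too, which follows from picking the genes nearest to Tlr7. The likeness is a description over 6 arrays that share 3 group means.

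Other genes of the pathway were taken from 7 lists with 67 measured genes of 76 listed. Between the wild-type stages 12 rose and 12 fell, where 10.4% of all genes were called higher and 23.7% lower, and the median was 0.00 against -0.01 over all genes. The 24 called genes are a share near the 34.1% of all genes called. Between the LMPP genotypes 1 rose and 3 fell, where 0.379% of all genes were higher and 0.995% lower, with a median of -0.09 against -0.02. Between E2A-KO LMPP and WT LSK FLT3- 10 were higher and 19 lower in E2A-KO LMPP, where 11.0% and 26.5% of all genes were, with a median of -0.01 against -0.02. Nothing particular to the lists is read from these counts.

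Among the accessory and trafficking genes 4 of 8 rose and 1 fell from WT LSK FLT3- to WT LMPP, beside 10.4% and 23.7% of all genes. Ly86 (MD-1) rose by 0.89 (SE 0.13, adjusted p = 0.0016), and Cd180, the receptor that pairs with it, by 0.68 (SE 0.22, adjusted p = 0.043). Cd36, a scavenger receptor, rose by 0.60 within the low range, and Tmed7, a cargo receptor of the secretory pathway, fell by 0.64 (log2 difference -0.64). Unc93b1, the chaperone that carries the nucleic acid receptors to endosomes and named here after its values were seen, rose from 5.95 and 5.82 to 6.33 and 6.34 (0.45, SE 0.13, adjusted p = 0.025). The Unc93b1 and Cd180 calls were lost with the arrays centred on their medians (0.0635 and 0.0723) and without either WT LSK FLT3- array, that of Unc93b1 also without either WT LMPP array (0.0615 and 0.0583) and that of Cd180 without WT LMPP replicate 1 (0.209), with the replicate number as a block (0.054) and with all probe sets tested (0.0552). Those of Cd36 and Tmed7 were lost with quantile normalization (0.0563 and 0.16), that of Cd36 also without either WT LSK FLT3- array (0.0933 and 0.0748) and that of Tmed7 without WT LMPP replicate 1 (0.0564), WT LSK FLT3- replicate 2 (0.131) and with all probe sets averaged (0.0528).

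Of the 16 adaptors and kinases 5 fell and 0 rose between the stages, a share of fallen genes near the 23.7% of all genes, with 6 at an unadjusted p under 0.05 in either direction. Tirap, the adaptor that links Tlr2 and Tlr4 to Myd88, was at 7.10 and 7.24 in WT LSK FLT3- and at 5.63 and 6.13 in WT LMPP, a fall of 1.29 (log2 difference -1.29, SE 0.19, adjusted p = 0.00163). The ubiquitin ligase gene Peli1 (-0.88), Tab3 (-0.71) and the kinase gene Btk (-0.57) also fell. Ticam1, the adaptor of Tlr3 and named after its values were seen, differed by 0.40 and did not pass (adjusted p = 0.12). The calls of Tab3 and Btk were lost with quantile normalization (-0.35 and -0.18) and without either WT LSK FLT3- array, and that of Peli1 with all probe sets averaged (-0.32, adjusted p = 0.0813).

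Negative regulators fell in 4 of 12 cases between the stages and rose in 0, again near the 23.7% of all genes that fell, with 7 at an unadjusted p under 0.05 in either direction. Irak3 (IRAK-M), a kinase-like inhibitor of Myd88 signalling, was at 6.84 and 6.94 in WT LSK FLT3- and at 5.26 and 5.38 in WT LMPP, a fall of 1.57 (log2 difference -1.57, SE 0.15, adjusted p = 0.000226). The NF-kappaB inhibitor gene Nfkbia fell by 0.75 (log2 difference -0.75), Tnfaip3 (A20) by 0.64 (-0.64) and Tnip1, which binds A20, by 0.44 (-0.44). Tnfaip3 and Tnip1 lost their calls with quantile normalization (-0.24 and -0.10), Tnfaip3 also without WT LSK FLT3- replicate 2 (adjusted p = 0.0648) and with all probe sets averaged (0.11). For Tnip1 the call was lost in 9 of 14 alternatives, among them those without WT LMPP replicate 1 or either WT LSK FLT3- array. It was lost with quantile normalization (adjusted p = 0.672) and on the 4 wild-type arrays alone (0.0521). Leaving out either E2A-KO LMPP array repeats that 4-array fit, so these count as 1 refit.

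Among the transcription factors 1 of 8 rose, Irf8, a factor of monocyte and dendritic cell development, which went from 7.44 and 7.37 in WT LSK FLT3- to 9.25 and 9.42 in WT LMPP (1.93, SE 0.13, adjusted p = 4.25e-05). Of 14 NF-kappaB target genes 4 rose and 1 fell, beside 10.4% and 23.7% of all genes, with the chemokine genes Cxcl1 (1.50, SE 0.27) and Ccl3 (1.01, SE 0.21) and the cytokine gene Tnf (0.77, SE 0.13) higher and Cebpb (-0.56, SE 0.15) lower in WT LMPP. Cxcl1 varied between the WT LMPP arrays, at 6.65 and 5.86. The Ccl3 call was lost without WT LSK FLT3- replicate 2 (adjusted p = 0.0792). That of Cebpb was lost with quantile normalization (0.0898), with all probe sets averaged (0.0698), and without WT LMPP replicate 2 (0.0798) or WT LSK FLT3- replicate 1 or 2 (0.0581 and 0.175).

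The list of interleukin-1 family receptors, a family that shares Myd88 as its adaptor, had 5 measured genes, among them the decoy receptor gene Il1r2, which does not signal. Il1r1 rose by 1.09 (SE 0.13, adjusted p = 0.000677) and Il18rap by 1.04 (SE 0.13, adjusted p = 0.000853), and Il1rap fell by 0.75 (log2 difference -0.75). The Il1rap call was lost with all probe sets averaged (-0.04, adjusted p = 0.862), with quantile normalization (0.114) and without WT LSK FLT3- replicate 1 or 2 (0.0911 and 0.0678). Among the other Toll-like receptors 1 of 4 rose, Tlr8, from 3.08 and 3.40 to 4.17 and 3.61 (0.65, SE 0.20, adjusted p = 0.0373), in the low range. That call was lost with either scaling alternative (adjusted p = 0.132 and 0.065), without WT LMPP replicate 1 (0.184) and without either WT LSK FLT3- array (0.237 and 0.0816).

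**Figure D4:**
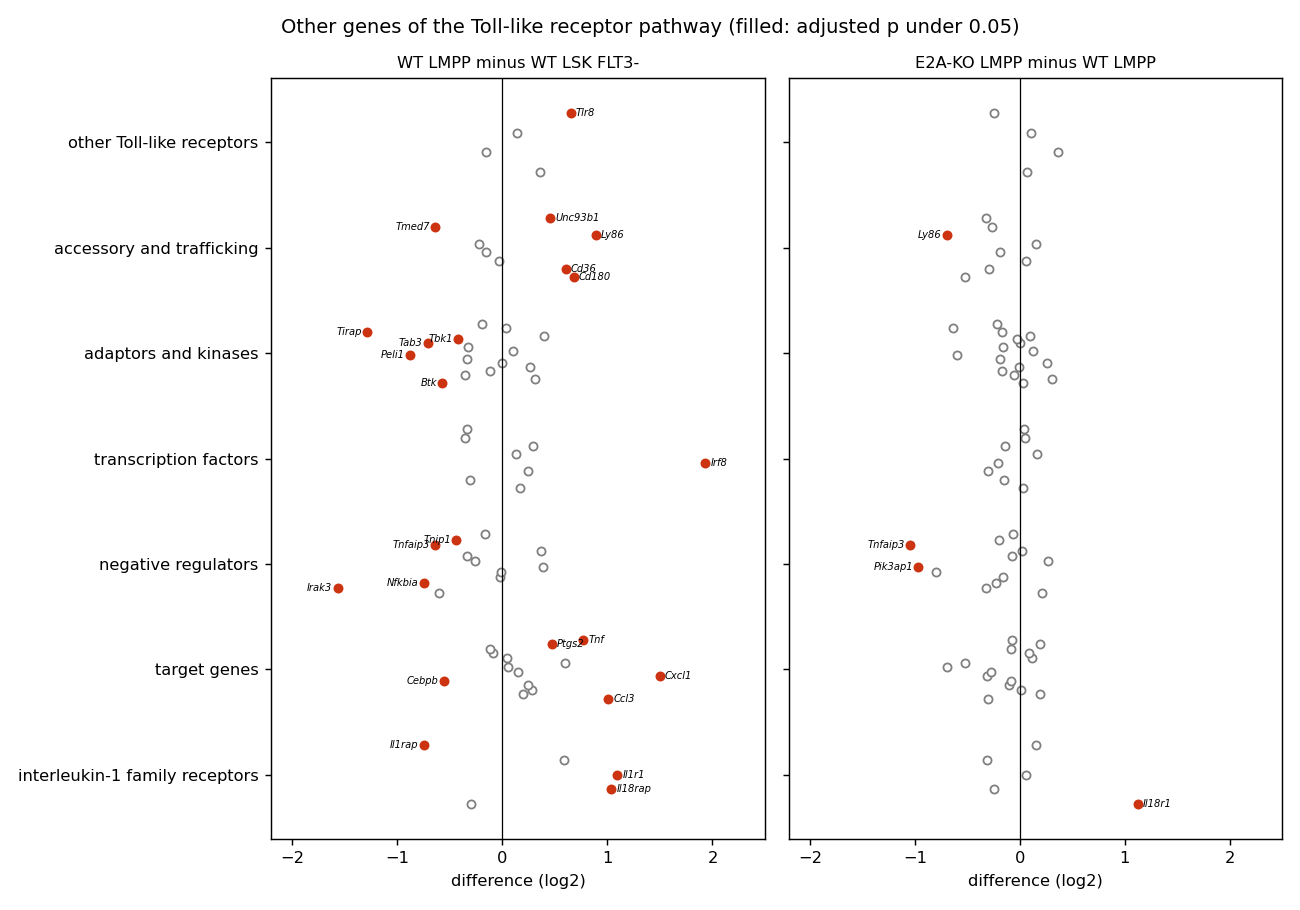
Log2 difference (horizontal axis) of each measured gene of the 7 pathway lists, WT LMPP minus WT LSK FLT3- on the left and E2A-KO LMPP minus WT LMPP on the right; each point is a gene, vertical offsets within a list only separate points, and filled, named points have an adjusted p under 0.05. On the left 12 genes are higher and 12 lower, and on the right Il18r1 is higher and Ly86, Tnfaip3 and Pik3ap1 are lower.

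Between the LMPP genotypes the 4 genes that passed were a co-receptor partner, a pair of negative regulators and a cytokine receptor. Tnfaip3 was at 6.32 and 6.41 in WT LMPP and at 5.34 and 5.29 on the E2A-KO LMPP arrays, a fall of 1.05 (log2 difference -1.05, SE 0.13, adjusted p = 0.00541), which was lost with the mean of all its probe sets (-0.45, adjusted p = 0.14). Pik3ap1 (BCAP), an adaptor that restrains Toll-like receptor signals, was at 6.38 and 6.41 in WT LMPP and at 5.38 and 5.48 on the E2A-KO LMPP arrays (-0.97, SE 0.13, adjusted p = 0.0111), a call lost without either E2A-KO LMPP array (0.0786 and 0.0555). Both groups were tight and did not overlap in either gene.

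Ly86 was at 6.73 and 6.78 in WT LMPP and at 6.14 and 5.99 on the E2A-KO LMPP arrays (-0.70, SE 0.13, adjusted p = 0.0439). Its call was lost in 10 of 14 alternatives, among them the replicate number as a block (0.0677) and the fit to the 4 LMPP arrays alone (0.138). Leaving out either WT LSK FLT3- array repeats that 4-array fit, so these count as 1 refit. The call was also lost without any 1 of the LMPP arrays, at differences from -0.77 to -0.62. Il18r1, the interleukin-18 receptor chain, rose from 6.17 and 5.77 to 6.96 and 7.21 (1.12, SE 0.17, adjusted p = 0.0185). It lost its call on the 4 LMPP arrays alone (0.0684), a fit that leaving out either WT LSK FLT3- array repeats. The call was also lost without WT LMPP replicate 2 or either E2A-KO LMPP array, at differences from 0.92 to 1.25.

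The other 4 lists had no called gene between the genotypes by limma. At an unadjusted p under 0.05 they held 1 of 4 other Toll-like receptors, 2 of 16 adaptors and kinases, 0 of 8 transcription factors and 2 of 14 target genes. The largest differences were -0.64 for the ubiquitin ligase gene Traf6 (adjusted p = 0.125) and -0.60 for Peli1 (0.11), -0.69 for the adhesion molecule gene Icam1 (0.0565) and -0.53 for Il1b (0.289), -0.30 for Irf7 (0.389) and -0.21 for Irf8 (0.521), and 0.37 for Tlr13 (0.291) and -0.25 for Tlr8 (0.63). Icam1 passed in 4 of 14 alternatives (lowest adjusted p = 0.0217) and Peli1 in 1 of 14 (0.0167).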

How the data were processed

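Per the submitters' processing notes the deposited probe set values were made with RMA, with no version given, and they are intensity values on a linear scale (4.23 to 25594), so log2 was taken. Whether the arrays were normalized together: not given in the sources used here. Samples were grouped by title; 1 free-text label that calls every sample wild-type LMPP was set aside. Of 45101 probe sets 34958 had 1 symbol. By Entrez ID 10 of 10 members matched the reference gene table.

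Differences were tested with limma 3.58.1 in R 4.3.3 (1 mean per group, 6 arrays, 3 residual and 5.8 prior degrees of freedom), two-sided, with Benjamini-Hochberg adjustment over 18194 genes. SEs and 95% intervals come from the model; the number of arrays limits the precision. The members, lists and tests were chosen with earlier results of these data known. Named genes were all members, Tcf3, and of each pathway list the up to 4 largest changes past the threshold (up to 2 where none passed), plus the 3 genes nearest in pattern to each of the 2 members with the widest range. Genes outside this rule, among them Unc93b1, Ticam1 and the named cell type markers, were chosen with their values known. The fit was tested on 20 sets of data simulated for the comparison of the LMPP genotypes, with 200 changed genes in each. It called 2.7% of log2 changes of 0.5, 73.2% of those of 1 and 99.4% of those of 2. Of its calls 5.3% were false. If the arrays vary as simulated, a member with a difference under 0.5 would therefore seldom be called between the genotypes. The simulated spreads were drawn from the model's own fitted prior, with independent normal noise. The share of false calls thus cannot show whether the model holds on these arrays. Alternatives were a replicate block, fewer arrays, other scalings, probe set rules, filters, variance models and thresholds. Leaving out 1 array of the group not compared repeats the fit to the 4 arrays compared, so counts of alternatives include repeated fits. Figures used matplotlib 3.10.9.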

Additional observations from a re-analysis of the deposited data

How the results depend on the processing

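The calls of Tlr3, Tlr4 and Tlr7 between the wild-type stages, and of Tlr2, Tlr3 and Tlr4 between E2A-KO LMPP and WT LSK FLT3-, kept their direction and side of the threshold in the 14 alternatives run on them at that threshold. Of 441 recomputed member differences 391 kept direction and side, 25 lost and 12 gained a call and 13 turned sign, none of which was called. With all probe sets averaged, the members called between the LMPP genotypes went from 1 to 0 lower and those higher in E2A-KO LMPP than in WT LSK FLT3- from 2 to 1. Quantile normalization turned Myd88 to 0.0505 between the genotypes, 0.0267 between the stages and 0.0772 between E2A-KO LMPP and WT LSK FLT3-, and median centring turned Tlr9 to -0.11 in the last comparison; the cause was not tested.

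Without 1 array each, the members called ranged from 0 to 1 lower between the genotypes, 1 to 4 lower between the stages, and 1 to 2 higher and 2 to 5 lower between E2A-KO LMPP and WT LSK FLT3-. Between the genotypes Tlr6 ranged from -0.21 to 0.0354, Myd88 from -0.15 to 0.10 and Cd14 from -0.25 to 0.35. Between the stages Tlr1 ranged from -0.31 to 0.13 and Cd14 from -0.50 to 0.11, and Tlr9 from -0.19 to 0.24 between E2A-KO LMPP and WT LSK FLT3-. Of the pathway genes, 0 to 1 were called higher and 1 to 3 lower between the genotypes, 6 to 14 higher and 4 to 12 lower between the stages, and 5 to 12 higher and 7 to 21 lower in the last comparison. Of all genes, 19 to 44 were called higher and 70 to 120 lower between the genotypes, 473 to 2027 higher and 1897 to 4383 lower between the stages, and 494 to 2424 higher and 2450 to 5091 lower in the last comparison.

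Between the genotypes 69 of all genes were called higher and 181 lower. The higher count became 45 with probe sets averaged, 162 with a variance trend and robust fit, 19 on the 4 arrays compared, 192 of all probe sets and 155 at an adjusted p under 0.1; the lower count became 386 with the trend, 70 on 4 arrays and 353 at the looser threshold. The pathway counts became 0 higher on 4 arrays and 6 lower with the trend. Between the stages the 1889 higher became 1142 without the dimmest 40% of genes, 1161 with median centring and 3648 of all probe sets, and the 4309 lower became 1840 with quantile normalization and 7000 of all probe sets; 4 pathway genes were lower with quantile normalization. Between E2A-KO LMPP and WT LSK FLT3- the 2002 higher became 1143, 1053 and 4753 in the same order, and the 4820 lower became 2024 and 8100; 7 pathway genes were lower with quantile normalization.

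The replicate number did not pair the samples (correlations of deviations 0.02, -0.02 and -0.04). With it as a block, 54 of all genes were higher and 146 lower between the genotypes, and among members the Ly96 call between E2A-KO LMPP and WT LSK FLT3- was lost (adjusted p = 0.0586). Signal over background limits Tlr1, Tlr6 and Cd14; 7 members were tested without the dimmest 40% of genes.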
